A study of Mus musculus with 2 samples.

Results

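The genes examined here carry out mitosis. They encode the mitotic cyclins and kinases, the spindle checkpoint, the centromere and kinetochore, the motors of the spindle, the machinery of cytokinesis, the condensins, and the activator, ubiquitin-conjugating enzyme and substrates of the anaphase-promoting complex (APC). A list of 48 symbols was taken, and a gene was a member where a probe set of the array carried its symbol and no other. This held for 46 of the 48 genes, out of 8721 named genes in all. Ccnb1 and Cdca8 had no such probe set and are not analysed here. The rule uses function and no measured value, although the list was drawn up with earlier results of these data known. Where a gene had several probe sets, the one with the highest log2 signal averaged over both arrays stood for it.

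The study profiled colon epithelial cells from mice of the inbred strain C57BL/6 at 7 weeks of age. Cells given PBS, a buffered salt solution, were compared with cells given MIF, taken here as macrophage migration inhibitory factor, a cytokine that signals through the surface protein CD74. Each incubation is represented by 1 Affymetrix array, so there is no spread between samples, and no test between the groups was possible. The sources used here state neither the dose of MIF, the length of incubation and the number of mice, nor how the cells were obtained. The 11 epithelial markers found in the table, among them Epcam, Vil1 and Cdx2, all lay above the signal floor on both arrays, at signals from 3144 to 14619.

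In dividing cells, cyclin B with Cdk1 drives entry into mitosis, and the Aurora and Polo kinases build the spindle. The spindle checkpoint holds back Cdc20, the activator of the APC, until all kinetochores are attached. The APC then marks securin and cyclin B for destruction, chromatids separate and the cell divides at the midzone. In the colon, divisions take place in the lower crypt, in stem cells and their transit-amplifying progeny. Transcripts of these genes build up in G2 and mitosis, and many of their promoters carry a CHR element, which is bound by the DREAM and MuvB complexes, together with CCAAT boxes, which are bound by NF-Y.

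The promoters of the 4 members with the lowest difference between the arrays are printed because the members share sequence features there that the choice of genes did not use. Sequences are from RefSeq on GRCm38.p6, each 5′ to 3′ on the strand of the gene, and each ends before the first annotated base of its gene. Capitals mark a CCAAT box (CCAAT, or ATTGG on the other strand) or a CHR element (TTTGAA or TTCGAA, or TTCAAA on the other strand). The stretches are chr7:80294201-80294444 (plus strand) for Prc1, chr5:30666636-30666876 (plus strand) for Cenpa, chr4:118437344-118437593 (minus strand) for Cdc20 and chr2:164769679-164769928 (plus strand) for Ube2c. No annotated RefSeq gene overlaps any of them.

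Prc1: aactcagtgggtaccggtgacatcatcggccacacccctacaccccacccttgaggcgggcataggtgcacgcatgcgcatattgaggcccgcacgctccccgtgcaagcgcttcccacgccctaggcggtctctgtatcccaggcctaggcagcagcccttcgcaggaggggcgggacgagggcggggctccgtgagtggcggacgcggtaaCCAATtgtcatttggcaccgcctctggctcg
Cenpa: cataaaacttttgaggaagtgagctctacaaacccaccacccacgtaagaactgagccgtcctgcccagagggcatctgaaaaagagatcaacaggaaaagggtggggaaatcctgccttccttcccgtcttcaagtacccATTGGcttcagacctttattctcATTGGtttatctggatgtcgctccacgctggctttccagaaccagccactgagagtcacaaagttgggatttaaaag
Cdc20: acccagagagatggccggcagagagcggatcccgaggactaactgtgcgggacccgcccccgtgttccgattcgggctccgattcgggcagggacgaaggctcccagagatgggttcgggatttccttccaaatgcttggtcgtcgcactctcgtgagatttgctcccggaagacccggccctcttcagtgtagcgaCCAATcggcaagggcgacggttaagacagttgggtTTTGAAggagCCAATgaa
Ube2c: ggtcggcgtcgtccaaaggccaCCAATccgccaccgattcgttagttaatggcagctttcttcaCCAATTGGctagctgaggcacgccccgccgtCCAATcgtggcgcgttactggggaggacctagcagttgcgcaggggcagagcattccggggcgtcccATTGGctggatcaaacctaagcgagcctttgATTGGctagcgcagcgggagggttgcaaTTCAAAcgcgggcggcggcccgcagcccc

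Cdc20 had its CHR element at position -18 from the start site, between CCAAT boxes at -53 and -8. In Ube2c the CHR element lay at -29 on the opposite strand, downstream of 6 CCAAT boxes on either strand, of which 2 overlap in the run CCAATTGG. Positions are counted from the start site used for the promoter window. The first annotated base of Prc1 and of Cenpa lies before it, so their printed stretches (244 and 241 bases) end short of that site. Prc1 had 2 start sites, of which the more upstream was used. Prc1 had a CCAAT box at -37, and Cenpa had 2 on the opposite strand at -109 and -86. Their CHR elements lie beyond the printed stretches, at -5 for Prc1 and at position 17 after the start site for Cenpa.

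Promoter windows of 300 bases, from 250 before to 50 after the start site, were found for 39 of the 46 members. A CHR element was present in 30 of the 39 (76.9%), against 16.3% of the 7113 genes of the array with a window. A CCAAT box was present in 30 members (76.9%), against 42.8% of those genes. Both motifs occurred together in 27 members (69.2%), against 6.52% of those genes, and 22 members (56.4%) had 2 or more CCAAT boxes, against 17.1%. Over all 32851 windows of the promoter table, 19.2% held a CHR element and 37.4% a CCAAT box.

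The E2F site (TTTCCCGC, TTTGGCGC, TTTCGCGC or TTTGCCGC on either strand) was found in 2 members (5.13%), Cdk1 and Ncapd2, against 4.88% of the genes of the array and 2.26% of all windows. In 43 genes of DNA replication and S phase the E2F site was present in 16 (37.2%), the CHR element in 9 (20.9%) and a CCAAT box in 25 (58.1%). In 43 mitotic genes outside the list, 25 (58.1%) had a CHR element, 27 (62.8%) a CCAAT box and 17 (39.5%) both. A motif match describes the letters of the window and does not show that a factor was bound.

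The mitosis genes were mostly lower on the MIF array. With no filter on signal, 42 of the 46 members were lower on the MIF array and 4 were higher, where 49.3% of all 8721 genes were lower. The median log2 difference, MIF minus PBS, was -0.24 over these members and 0.0039 over all genes. Signals under a floor of 232, the 40th percentile of all signals, were then treated as not measured. Above it on both arrays lay 35 members, of which 32 were lower and 3 higher, against 53.5% lower among the 5545 genes that met the same condition. Their median was -0.27, against -0.01 for those genes.

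The differences were small in size and shared by many members. A difference of at least 1.2-fold towards lower signal was seen in 18 of the 35 members, against 6.15% of genes, and none was 1.2-fold higher, against 6.67% of genes. Prc1 alone passed 1.5-fold, against 0.379% of genes. The interquartile range of the members ran from -0.36 to -0.15 on the log2 scale, and that of all genes from -0.11 to 0.10. Genes with several probe sets give a measure of error within these arrays, an SD of 0.13 on the log2 scale over 1800 genes. By that measure 18 members were lower by more than 2 SD, as were 5.9% of genes. The cut at 2 SD (0.27) nearly equals 1.2-fold (0.26), so it is no separate result. This SD reflects hybridisation of the same RNA and holds nothing of the spread between cell preparations.

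**Figure D1:**
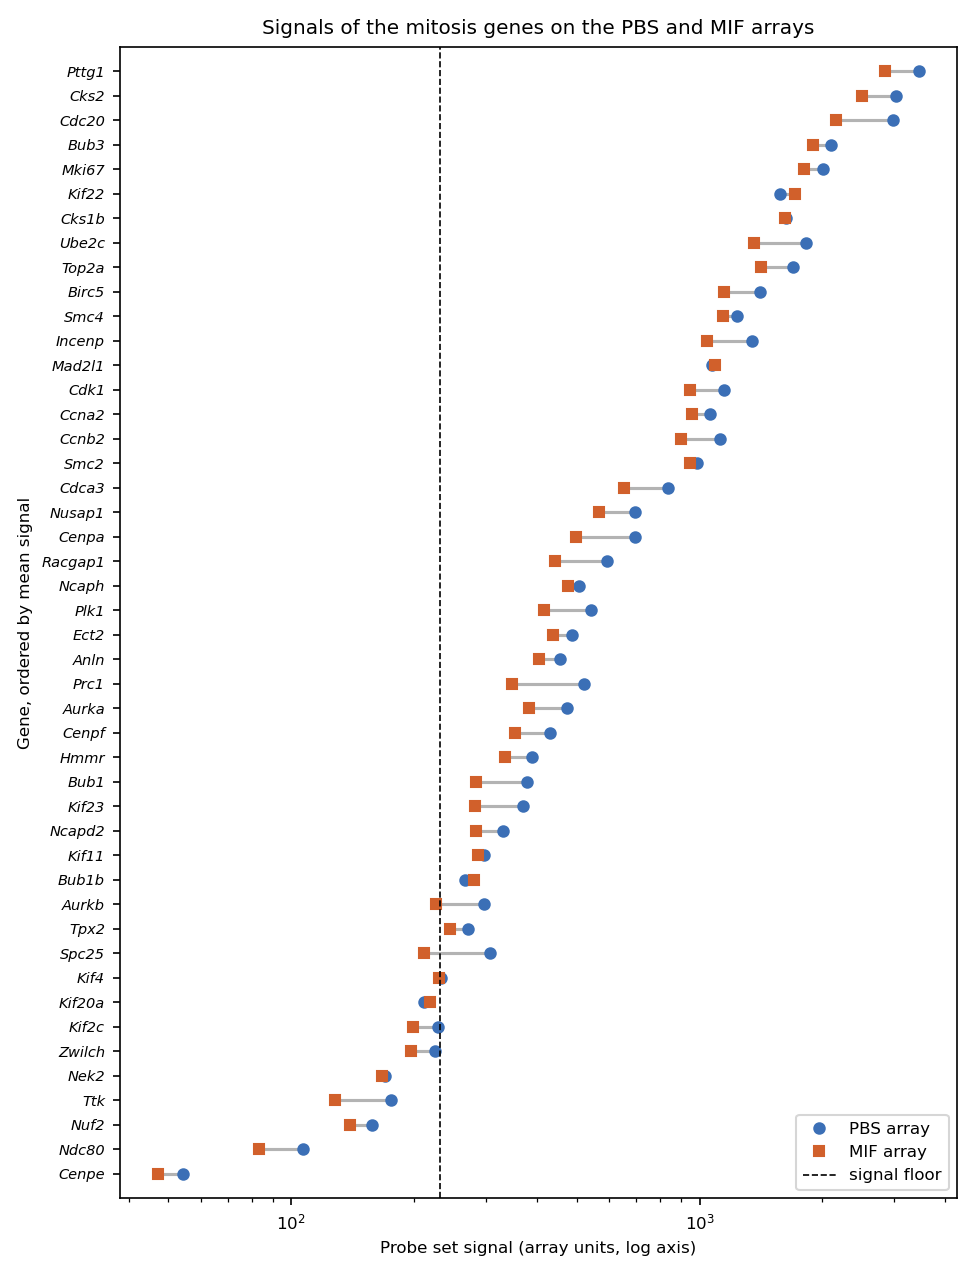
Signal of the probe set of each of the 46 mitosis genes (array units, log axis) on the PBS array (circles) and the MIF array (squares), 1 array each, with the signal floor of 232 as a dashed line. The MIF square lies to the left of the PBS circle for 42 genes and to the right for Kif22, Mad2l1, Bub1b and Kif20a.

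A further 3 members, Spc25, Aurkb and Kif4, passed the floor with PBS but not with MIF, so they could only be lower, and their differences are bounds. Including these 3 gave 38 assessed members, with 35 lower (53.3% of all 5837 assessed genes were), 20 at least 1.2-fold lower (6.29%) and 1 at least 1.5-fold lower (0.463%), and a median of -0.27. With the arrays centred on their medians, 21 members and 8.90% of all genes were at least 1.2-fold lower. No member passed the floor with MIF but not with PBS. Among all 8721 genes, 142 passed it only with PBS and 150 only with MIF. Both shares are small, so the counts of 3 and 0 among 46 members are too low to compare with them. The remaining 8 members, Cenpe, Ndc80, Nuf2, Nek2, Kif20a, Ttk, Zwilch and Kif2c, were under the floor on both arrays, at signals from 47.1 to 228. Of these, 7 were lower on the MIF array and Kif20a was higher, with raw log2 differences from -0.46 to 0.04. With no floor, 49.3% of all 8721 genes were lower, a share not limited to the 2884 genes under the floor on both arrays. Signals under the floor were treated as not measured, so these 8 directions carry little weight.

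Of the regulators that start mitosis, Plk1, the Polo kinase of the centrosome and spindle, had signals of 544 (PBS) and 417 (MIF), a log2 difference of -0.38. For Ccnb2, a B-type cyclin, signals were 1124 and 900.0, a difference of -0.32. Aurka, the Aurora kinase of the spindle poles, gave 474 and 381, a difference of -0.32. Cdk1, the kinase that these cyclins switch on, was at 1150 and 950, lower by the smaller amount of -0.28. Cks2 and Cks1b encode small paralogous proteins that bind Cdk1. Cks2 went from 3024 to 2505, a difference of -0.27, but its second probe set was at 2196 and 2101, a difference of -0.06. Cks1b was nearly equal at 1627 and 1622. Ccna2, the cyclin of S phase and G2, was at 1063 and 961, a difference of -0.15. In this group 5 of 7 assessed genes were at least 1.2-fold lower, against 6.29% of all assessed genes, with Cks2 counted on its first probe set.

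All 4 genes of the APC group were at least 1.2-fold lower, against 6.15% of genes above the floor on both arrays. Cdc20, which activates the APC at the end of metaphase, had signals of 2972 (PBS) and 2154 (MIF) and was 1.38-fold lower. Its second probe set read 1345 and 925, a log2 difference of -0.54 against -0.46 for the first. Ube2c, the ubiquitin-conjugating enzyme of the APC, went from 1819 to 1359, a difference of -0.42. Cdca3, an APC substrate, was at 836 and 654, a difference of -0.36. Pttg1, which encodes securin, the inhibitor of separase, was at 3447 and 2845, a difference of -0.28 on each of its 2 probe sets above the floor.

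The core subunits of the APC, which are not on the list, were read as well. Assessed were 15 genes for APC subunits, its other activator Fzr1 and related regulators. Of these 12 were lower (53.3% of all assessed genes were) and 3 higher, with a median of -0.11. At 1.2-fold, 2 were lower and 1 higher, where 6.29% of all assessed genes were lower and 6.82% higher. Ube2s, which extends the ubiquitin chains that Ube2c begins, was at 2155 and 1715, a difference of -0.33. The catalytic subunit gene Anapc11 was at 829 and 655, a difference of -0.34. The scaffold subunit gene Anapc1 was higher, at 574 and 718, a difference of 0.32.

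Of the checkpoint genes above the floor on both arrays, 2 were lower and 2 higher, where 53.5% of all such genes were lower. The 2 higher genes differed by less than the probe set SD. Bub1, a kinase at unattached kinetochores, had signals of 377 and 283 on the PBS and MIF arrays, a difference of -0.41. Its partner Bub3 was at 2095 and 1895, a difference of -0.14. Mad2l1, which binds and inhibits Cdc20, was nearly equal at 1073 and 1090, with a difference of 0.02 that became -0.01 with median centring of the arrays. Bub1b, which encodes the inhibitor BubR1, was at 267 and 280, a difference of 0.07. Of the 4 assessed genes, only Bub1 was past 1.2-fold, where 6.29% of all assessed genes were at least 1.2-fold lower.

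Genes of the centromere, the kinetochore and the passenger complex were next. Cenpa, the histone H3 variant that marks centromeres, had signals of 695 (PBS) and 498 (MIF) and was 1.40-fold lower. Cenpf, a large protein of the outer kinetochore, was at 430 and 352, a difference of -0.29. Spc25, a subunit of the microtubule-binding Ndc80 complex, was at 306 on the PBS array and under the floor at 212 on the MIF array, at least 1.32-fold lower. Incenp, the scaffold of the chromosomal passenger complex, was at 1345 and 1046, a difference of -0.36, and its second probe set was at 410 and 353, a difference of -0.21 that is under 1.2-fold. Birc5, which encodes survivin, was at 1409 and 1146, a difference of -0.30. Aurkb, the kinase of this complex, was at 296 and, just under the floor, at 226, at least 1.28-fold lower. Its second probe set was under the floor on both arrays, at 201 and 190, a raw difference of -0.08. The 4 genes above the floor on both arrays were past 1.2-fold on their first probe set, against 6.15% of such genes. Spc25 and Aurkb had to be lower to be assessed.

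**Figure D2:**
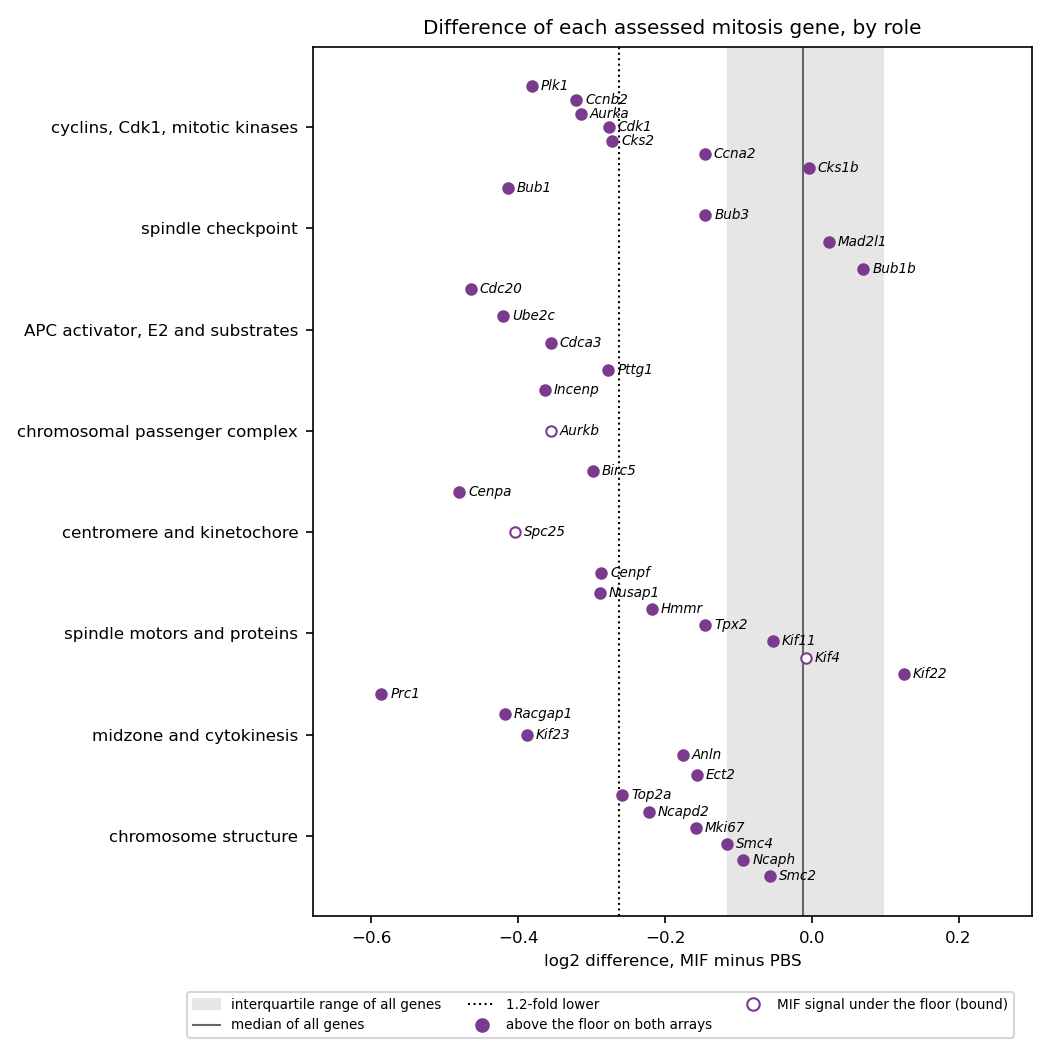
Each point is the log2 difference (MIF minus PBS) of 1 of the 38 assessed mitosis genes, in rows by role. Open points are bounds for genes whose MIF signal lay under the floor. The line is the median of all assessed genes (-0.01), the grey band the interquartile range of genes over the floor on both, and the dotted line 1.2-fold lower. The plotted probe sets of the APC, passenger complex and centromere groups lie to the left of the dotted line, and those of chromosome structure to the right of it.

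Among midzone and cytokinesis genes, Prc1, which bundles the antiparallel microtubules of the midzone, showed the lowest value of the 35 members. Its signals were 521 (PBS) and 347 (MIF), a log2 difference of -0.59, and a second probe set gave 343 and 237, a log2 difference of -0.53. Racgap1 and Kif23 form centralspindlin, the complex that places the cleavage furrow. Racgap1 was at 592 and 443, a difference of -0.42 that was -0.14 on its second probe set. Kif23 was at 369 and 282, a difference of -0.39. Anln, an actin-binding scaffold of the contractile ring, and Ect2, which activates RhoA there, differed less. They were at 456 and 404 (-0.18) and at 488 and 438 (-0.16).

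Genes of spindle motors and microtubule proteins ran from -0.29 to 0.13. Nusap1, which stabilises spindle microtubules, was at 693 and 567, a difference of -0.29. On first probe sets it was the only 1 of 6 assessed genes of this group past 1.2-fold, against 6.29% of all assessed genes. Hmmr, a spindle pole protein and hyaluronan receptor, was at 389 and 334, a difference of -0.22. Tpx2, the activator of Aurora A, was at 271 and 245, a difference of -0.15. Kif11, the motor that pushes spindle poles apart, was at 297 and 286, a difference of -0.05, with -0.26 on a further probe set. Kif4, a motor carried on chromosomes, lay at the floor at 233 and 230. Kif22, another such motor, was the member with the highest value, at 1573 and 1717 with a difference of 0.13, but its second probe set was at 325 and 265, a difference of -0.29.

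The 6 chromosome structure genes were lower on their first probe sets, as were 53.5% of genes above the floor on both arrays. Each differed by less than 1.2-fold. Top2a, the topoisomerase that untangles sister chromatids, was at 1696 and 1418 on the PBS and MIF arrays, a difference of -0.26. Mki67, the proliferation marker that coats mitotic chromosomes, was at 2012 and 1803, a difference of -0.16. Condensin genes compact the chromosomes. Ncapd2 was at 330 and 283 (-0.22). Smc4 was at 1235 and 1140 (-0.12) and Smc2 at 985 and 947 (-0.06). Ncaph was at 508 and 476 (-0.09) on a probe set that can cross-hybridise. Its other probe set was at 295 and, under the floor, at 214, a bound of -0.35 that is past 1.2-fold.

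Further probe sets of the same genes gave a second reading of these RNAs. Over 11 members, 12 further probe sets were above the floor on both arrays, and all 12 were lower on the MIF array, where 41.4% of such probe sets of all genes were. Their median difference was -0.21, and that over all genes was 0.04. At 1.2-fold, 4 of the 12 were lower, against 4.88% of such probe sets of all genes. The readings lay furthest apart for Kif22, where they were opposed in sign, and for Racgap1. Over all 76 probe sets of members, with no floor, 67 were lower (44.9% of those of all genes) and 9 higher. Hmmr had 4 of these, of which 2 were lower and 2 higher, and the mean of those assessed was 0.02.

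**Figure D3:**
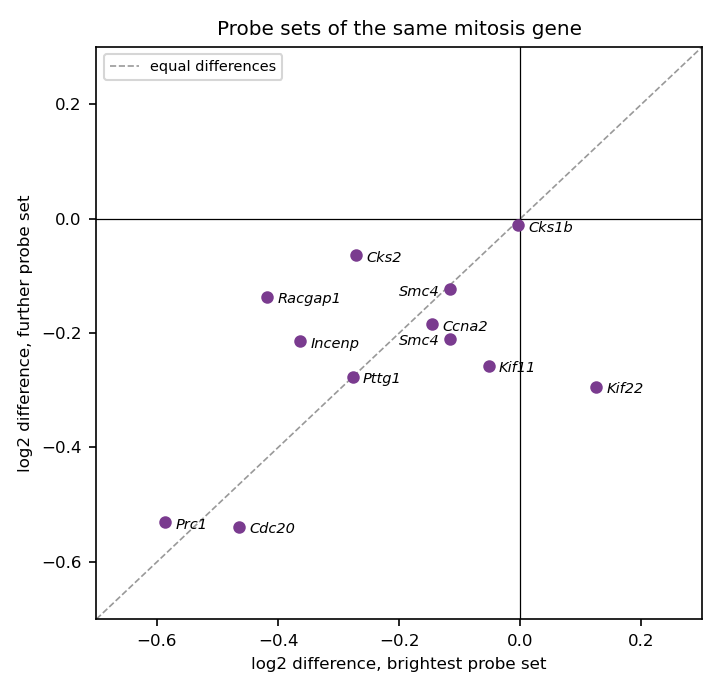
For 11 mitosis genes, the horizontal axis is the log2 difference (MIF minus PBS) of the probe set with the highest mean signal, and the vertical axis that of each further probe set that passed the floor on both (12 points; Smc4 has 2). The dashed line marks equal differences. All points lie below 0 on the vertical axis, and Kif22 is the point with opposed signs.

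The lower values were found across the range of signals. In 4 nearly equal groups of genes above the floor on both arrays, ordered from low to high mean signal, the members had medians of -0.22 (11 members), -0.36 (7), -0.20 (12) and -0.27 (5). The medians of all genes in these groups were 0.01, 0.0042, -0.01 and -0.04.

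Other genes of the cell cycle were compared to see how far the difference extended. Outside the list, 53 mitotic genes were in the table, of which 30 were under the floor on both arrays. Above it on both arrays were 22. Of these 22, 18 were lower (53.5% of all genes above it were) and 4 higher, with a median of -0.10. At 1.2-fold, 4 were lower, against 6.15% of genes above the floor on both arrays, and 1 higher, against 6.67%. Aspm passed the floor with PBS alone and had to be lower. With no floor, the median was -0.17 over all 53 genes, against -0.24 for the members and 0.0039 for all genes. With the floor at the 60th percentile it was -0.05 over 12 genes, against -0.25 over 24 members. Plk4, the kinase of centriole duplication, was at 333 and 246 (-0.44). Cdca5, which encodes sororin of the cohesin ring, was at 479 and 387 (-0.31). The tubulin gene Tubb5 was at 2563 and 2100 (-0.29), and Shcbp1, a midbody gene, at 405 and 336 (-0.27). Hmgb2, a chromatin protein of dividing cells, was the gene past 1.2-fold in the other direction, at 1260 and 1637 (0.38).

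Genes of DNA replication and S phase had a median of -0.07 over the 35 that passed the floor on each array. Of these 22 were lower (53.5% of all such genes were) and 13 higher. A further 3, Pola1, Pola2 and Pold1, passed the floor with PBS alone and had to be lower. Of the 35, 6 were at least 1.2-fold lower, against 6.15% of such genes, and none was higher, against 6.67%. They were Tk1 (-0.37), the thymidine kinase, Mcm10 (-0.36), a replication initiation factor, the helicase subunit gene Mcm6 (-0.34), the ligase gene Lig1 (-0.34), the polymerase subunit gene Pole2 (-0.33) and the flap nuclease gene Fen1 (-0.29). The sliding clamp gene Pcna was nearly equal, at 4230 and 4214; it was chosen after its values were seen. Cohesin genes, which hold sister chromatids together, had a median of 0.01 over 7 genes, with 3 lower and 4 higher. That median was -0.03 with median centring. Among them Pds5a was past 1.2-fold higher, at 648 and 779 (0.27). With 1 array per group, the difference between these lists and the mitosis genes could not be tested.

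**Figure D4:**
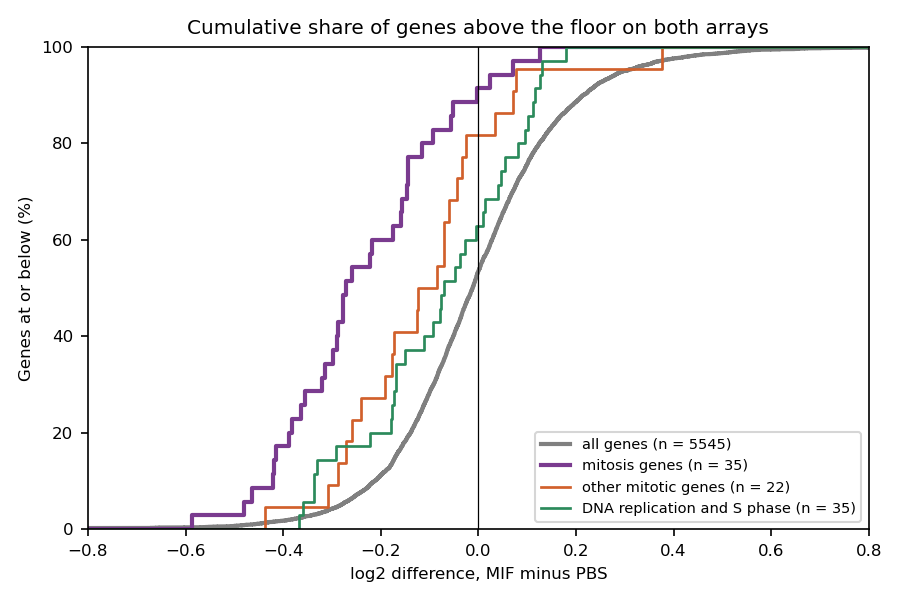
Cumulative share of genes (%) against the log2 difference (MIF minus PBS), for genes above the floor on both arrays: 35 mitosis genes, 22 other mitotic genes, 35 genes of DNA replication and S phase, and all 5545 genes. The curve of the mitosis genes lies to the left, with a median of -0.27, and that of all genes crosses the middle near 0, at -0.01.

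The promoter motifs were set beside the differences. The 24 members above the floor on both arrays whose window held both a CHR element and a CCAAT box had a median of -0.28, from -0.59 to 0.13. The 7 without both had a median of -0.27, from -0.30 to 0.02. At least 1.2-fold lower were 13 of the 24 and 4 of the 7. Outside the members, 296 genes with both motifs had a median of -0.02, and 4264 genes without both had -0.01. These motif comparisons of differences were chosen after the values of the members were known.

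Markers of other cells also differed between the arrays. The 7 T and NK cell markers in the table were all lower on the MIF array, against 49.3% of all genes with no floor. Their summed signals were 1726 (PBS) and 940 (MIF). Only Gzma, at 813 and 403, and Gzmb, at 541 and 282, were above the floor, and Cd8a was at 28.5 and 25.7. The 8 fibroblast markers were all higher on the MIF array, against 50.7% of all genes with no floor. Their sums were 833 and 2076, but 5 of the 8 were under the floor on both arrays. Dcn, at 235 and 678, and Col3a1, at 227 and 554, made up most of these sums. The 3 B and plasma cell markers summed to 2675 and 2699, of which Sdc1, a gene that epithelium also expresses, made up 2614 and 2657, and the other 2 were under the floor on both arrays. The 8 myeloid markers summed to 1864 and 1896, of which Cd14 made up 1318 and 1307, and 6 were under the floor on both arrays. These sums therefore say little of those cells. The 3 endothelial markers, all under the floor, summed to 47.3 and 89.0. The 8 crypt stem and transit cell markers summed to 2582 and 2906, with 7 of the 8 higher, against 46.7% of all assessed genes. At least 1.2-fold higher were 3, against 6.82% of assessed genes: Smoc2 at 257 and 331, Ephb3 at 238 and 305 and Axin2 at 278 and 334. Lgr5 and Ascl2 passed the floor with MIF alone, so they could only be higher. Sox9 (0.05) and Cd44 (0.04) differed by less than the probe set SD, as did Myc (-0.06), which was lower. These markers were named with their values known. The 11 epithelial markers summed to 93970 and 90703. The part of these cell populations in the difference of the mitosis genes was not tested. In RNA of mixed cells, fewer dividing cells and less mitotic RNA per cell cannot be told apart.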

How the data were processed

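The values deposited by the authors are signal intensity for each probe set, which their range shows to be linear. Trizol was used to extract total RNA and the Affymetrix procedure to make biotin-labelled cRNA, per the labels' protocols. For probe summary, background correction, scaling and the choice of the 15340 probe sets, no method is given in the sources used here. The 61 array controls were left out. Among the remaining 15279, 14049 carried a single gene symbol in GEO's platform annotation, which can be old. Symbols were updated by Entrez ID for 14034 of these with the gene table of GRCm38.p6. The 490 with several symbols and the 740 with none stayed unnamed.

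The columns were used as deposited, since their medians (336 for PBS and 345 for MIF) differed by 0.04 on the log2 scale, under the limit of 0.1. Signals under the floor of 232 (40th percentile of both arrays) were raised to it. A gene under it on both arrays was not assessed. With 1 array per group there are no p-values or errors between samples, and precision is limited by the number of arrays. Counts were read at 1.2-fold and 1.5-fold beside the share of all genes. The 1.2-fold cut was set from the spread over genes known from an earlier look at these data.

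Members and lists were chosen with earlier results of these data known. All measured members are named, and of other cell cycle lists the genes above the floor on both arrays that differed by at least 1.2-fold. Alternatives were median centring, quantile normalization, removal of a loess trend (span 0.3), another floor (20th percentile, 60th percentile or none), averaged probe sets, and use of no probe set with the suffix _x_at or _s_at. A value was said to move when the shift exceeded the SD among a gene's probe sets (0.13), and a count when it changed by over 1.5 times. The planned search for a protein motif was not run, as no protein sequences were used here. The steps were tested on simulated data. Software was Python 3.11.15, statsmodels 0.14.6, numpy 2.4.6, matplotlib 3.10.9 and pandas 2.3.3.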

Additional observations from a re-analysis of the deposited data

How the results depend on the processing

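The median of the assessed mitosis genes stayed between -0.31 and -0.24 over 8 alternatives and 2 more chosen after seeing the data (genes above the floor on both arrays, and genes with a mean signal above it), while that of all genes ran from -0.05 to 0.0039. The share of members that were lower ran from 87.2% to 94.7%, against 49.3% to 62.1% of all genes. The share at least 1.2-fold lower ran from 45.8% to 55.3%, against 5.49% to 10.3% of all genes. With the floor at the 60th percentile, 24 members were assessed, so fewer were counted: 22 were lower, 11 at least 1.2-fold lower and 0 at least 1.5-fold lower. The count of 1 at 1.5-fold, Prc1, was also 0 with averaged probe sets and 0 without probe sets ending in _x_at or _s_at. Of 360 values of single members under an alternative, 352 stayed within the probe set SD and 8 moved. Many of these could not move. Another floor leaves a value above it as it was, and averaging changes only members with several probe sets. Median centring shifts a value by at most 0.04, under that SD. Hmmr and Kif22 turned sign with averaged probe sets, to 0.02 and -0.08, and Cks1b, near 0, turned to 0.0069 with the loess trend removed. Median centring moved the lower share of all genes past 1.2-fold from 48.0% to 63.4%, and gave 21 members lower and 0 higher. No paired analysis was possible because each group has 1 array. Members near the floor are limited by their low signal, and no alternative stands in for replicates.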
